A study of Saccharomyces cerevisiae with 15 samples.

Results

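Melatonin given before oxidative stress was examined by setting the 3 arrays of 5MelH against the 3 arrays of H, which are 6 of the 15 arrays in the series. Both groups hold total RNA of QA23, a commercial wine strain of *Saccharomyces cerevisiae* from Lallemand, grown in YPD and exposed at the exponential phase to 2 mM H2O2 for 1 h. Cells of 5MelH had grown with 5 μM melatonin before the peroxide was added, and cells of H had grown without it. The methods describe no removal of melatonin before the peroxide, so it may have been present during the stress as well. The remaining arrays belong to Control, with neither agent, to 5Mel, with 5 μM melatonin and no peroxide, and to 25MelH, with 25 μM melatonin and the same stress, and there are 3 of each. By the methods of the study, each condition was grown as 3 biological replicates, all of this single strain. The arrays were chosen by the sample labels of the scanner tables alone.

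Melatonin is an indole made from tryptophan, which yeast can form during fermentation and which is known as an antioxidant in many organisms. In yeast, H2O2 activates Yap1p and Skn7p, which drive genes of the thioredoxin and glutaredoxin systems, and Msn2p and Msn4p, which drive the general stress genes. Hsf1p governs many chaperone genes. Growth and division slow down at the same time. The respiratory chain of the mitochondrion, whose complexes are encoded partly in the nucleus and partly in the mitochondrial genome, is both a source and a target of reactive oxygen. The comparison asks which of these programmes differ in stressed cells when melatonin was present beforehand.

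Each array carried a single dye, and a level is given here as the log2 signal of a gene relative to the 75th percentile of its array. Since signals are relative to the array, a shift shared by most genes is taken out, and neither the number of cells nor the RNA per cell can be read from them. Across the 6 arrays that percentile lay between 2514 and 3578 intensity units, and 86.3% to 91.2% of the genes on an array exceeded background clearly, by the flag of the scanner software. Arrays of one group correlated across genes with r of 0.993 to 0.996, and the SD of the difference between 2 of them was 0.27 to 0.41 on the log2 scale. Negative control spots varied most on the first H array (SD of 11.6 intensity units) and on the third 5MelH array (17.2), against 1.12 to 2.38 on the other 4. Slide 1 held 5MelH replicates 1 and 2 and H replicate 1, and slide 2 the other 3 arrays. *SRX1*, which encodes sulfiredoxin and is a Yap1p target, lay at −2.47, −2.42 and −2.34 on the H arrays and at −1.60, −1.75 and −2.02 on the 5MelH arrays, far above the −5.50 to −4.83 of Control and the −5.82 to −4.89 of 5Mel, so both groups carry the peroxide response. Which of the stressed arrays had received melatonin is known from the labels only. The deposited matrix puts the name 5MelH on the arrays that the scanner tables call H, the name 5Mel on those called 5MelH, and the name H on those called 5Mel. Under the matrix names the 5Mel arrays, which had no peroxide, would hold the high *SRX1* levels and the H arrays the low ones. *SRX1* does not tell which of the 2 stressed sets had melatonin, so the sign of every change below rests on the scanner labels. The files alone do not settle this doubt. In its own comparison of MelH with H, the paper lists *SRX1*, *TRX2*, *CTT1* and *COX3* as upregulated and *MMT1* and *ALD5* as downregulated. These are the directions found under the scanner labels, but they come from the same arrays and are no separate measurement.

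Differences between 5MelH and H were small for nearly every gene. The median log2 change over 6224 genes was 0.0086, the median size of a change was 0.077, and changes at the 5th and 95th percentile were −0.24 and 0.24. A positive change was found for 53.1% of them. In limma, 0 genes (0%) passed an adjusted p of 0.05, with 0.319 as the lowest value. Before adjustment, 445 genes (7.15% of those tested) were higher in 5MelH and 325 (5.22%) were lower at a p under 0.05. Scaling on the spike-in controls instead moved the median of all genes to 0.20 and these numbers to 900 and 9, so each change below is relative to the 75th percentile of the array. The 3 arrays of one group lay entirely above those of the other for 768 genes higher in 5MelH (12.3%) and 563 lower (9.05%). A block on the replicate number gave 0 genes as well, with 293 higher and 226 lower before adjustment. With no block, the numbers higher and lower were 210 and 150 without H replicate 1 and 263 and 192 without H replicate 2. Without H replicate 3 they were 273 and 224. They were 453 and 291 without 5MelH replicate 1, 414 and 461 without 5MelH replicate 2, and 573 and 342 without 5MelH replicate 3. None of these fits called a gene after adjustment. No gene is therefore called changed below, and genes are described by their single arrays. Counts within lists at an unadjusted p under 0.05 are to be read beside the 7.15% higher and 5.22% lower over all genes. Counts of positive changes are to be read beside the 53.1%.

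Precision depended on how bright a gene was. The median SE of a log2 change was 0.20 for genes below the 25th percentile of brightness, 0.065 for those from there to the median and 0.060 on either side of the 75th percentile. Of the 14 genes with a log2 change beyond 1 in either direction, 0 were well above background on all 6 arrays. Of the 5337 genes that were, 12 had a change beyond 0.5. Genes named with values below belong to that brighter set unless stated otherwise. Those picked for the smallest p or the largest change had to have groups that did not overlap. For them this trait was fixed by the choice and is no support.

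**Figure D1:**
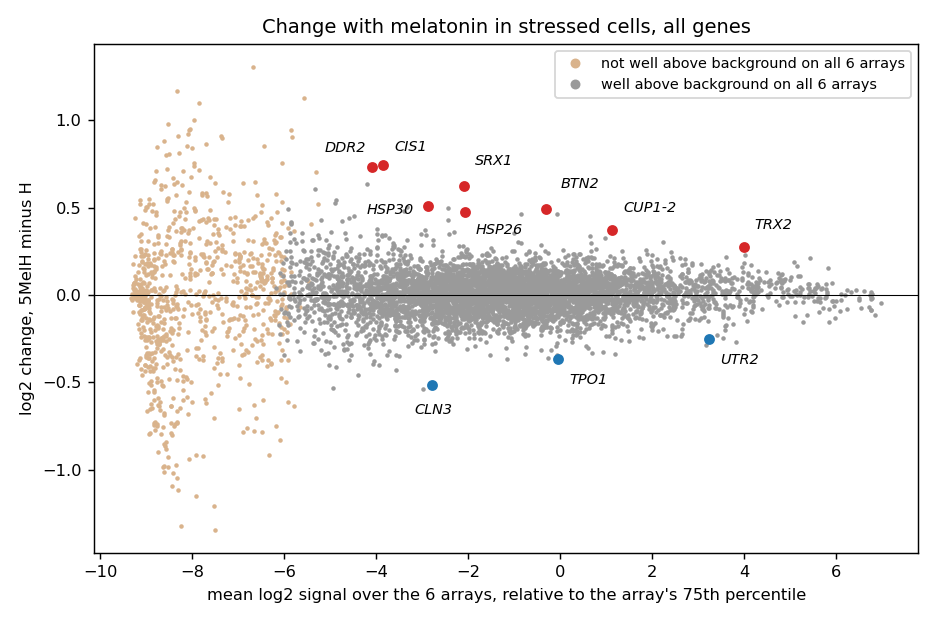
The log2 change, 5MelH minus H, of each of 6224 genes is plotted against its mean log2 signal over the 6 arrays, with genes that were not well above background on all 6 arrays in tan and 11 named genes marked. The wide scatter sits among dim genes at the left, while bright genes such as *TRX2* (0.27) and *UTR2* (−0.25) stand at the edge of a narrow band.

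Some genes of small heat shock proteins and of protein quality control were among those with the smallest p on the side of 5MelH, namely *HSP42*, *HSP26*, *HSP30* and *BTN2*. *HSP42* (YDR171W), a cytosolic chaperone that gathers unfolded proteins, had levels of −1.08, −1.07 and −1.07 in H and of −0.79, −0.77 and −0.75 in 5MelH. The groups did not overlap, and the difference of 0.30 (SE 0.036, adjusted p of 0.319 in limma) is a 1.23-fold higher level. *HSP26* (YBR072W), a small heat shock protein that holds unfolded proteins in solution, stood at −2.38, −2.31 and −2.27 in H and at −1.75, −1.85 and −1.93 in 5MelH, a difference of 0.47 (SE 0.061). *BTN2* (YGR142W), which sorts misfolded proteins to cellular deposits, stood at −0.67, −0.49 and −0.50 in H and at 0.04, −0.17 and −0.07 in 5MelH. Every 5MelH array of these genes was higher than every H array on both slides. For *HSP26* the difference was 0.57 within slide 1 and 0.36 within slide 2, and for *BTN2* it was 0.61 and 0.43.

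*HSP30* (YCR021C), a stress protein of the plasma membrane that lowers the activity of the proton pump, had levels of −3.13, −3.25 and −3.00 in H and of −2.52, −2.64 and −2.70 in 5MelH, again without overlap and with a difference of 0.51 (SE 0.082). Its relative *YRO2* was higher by 0.31 (SE 0.053). *CUR1*, the paralog of *BTN2*, was higher by 0.23 (SE 0.070), but by 0.33 within slide 1 and 0.076 within slide 2. Among the 12 small and membrane heat shock proteins, 4 were higher and 0 lower at an unadjusted p under 0.05, with 3 negative changes, all of genes not well above background on every array, and a median of 0.099 (0.23 without H replicate 1 and 0.063 with normexp background correction) against 0.0086 for all genes. The larger group of 35 chaperones of the Hsp70, Hsp90 and Hsp60 families with their cochaperones gave 7 higher and 1 lower and a median of 0.043 (0.077 without 5MelH replicate 2 and 0.066 without replicate 3). *HSP10*, the mitochondrial cochaperonin (0.17, SE 0.045, but 0.10 within slide 2), and *FES1*, a nucleotide exchange factor of Hsp70 (0.17, SE 0.052), are among the 7. The 1 lower gene was *SSC1* (−0.16, SE 0.056). Of the 35 changes 25 were positive and 10 negative, the latter including *MDJ1* (−0.086) and *HSP60* (−0.043).

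**Figure D2:**
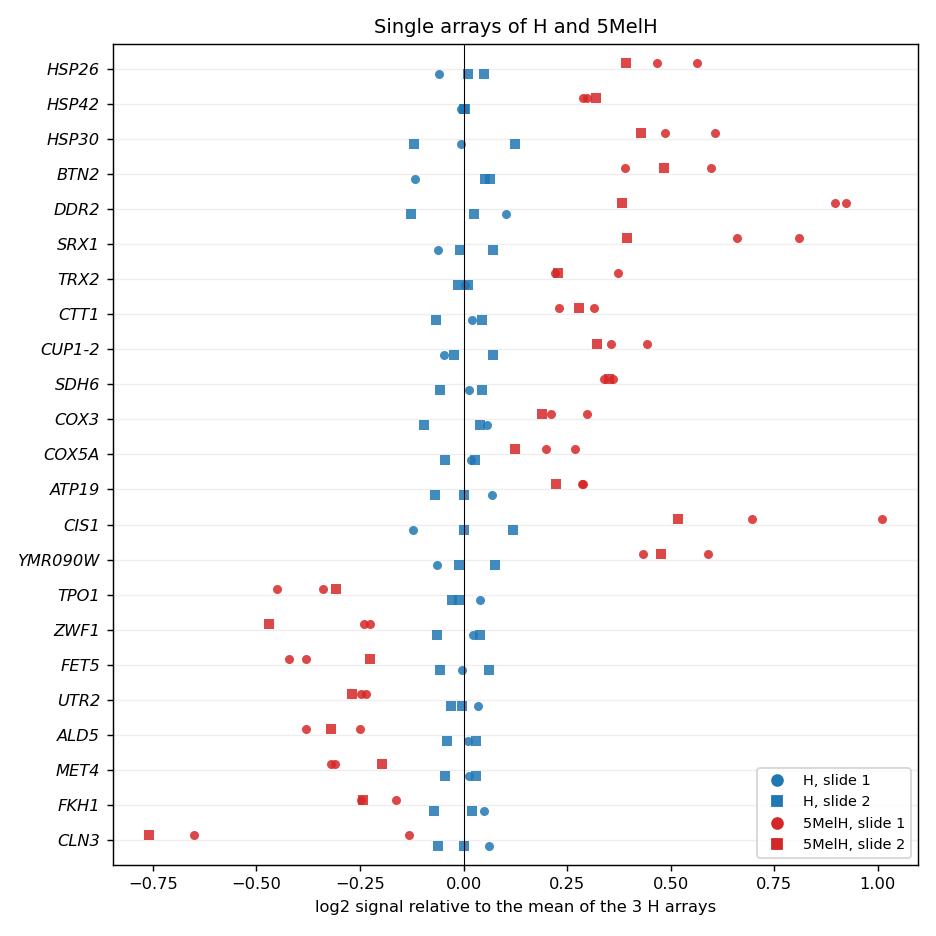
Each point is 1 array, placed by its log2 signal relative to the mean of the 3 H arrays, for 23 genes in rows, with H in blue and 5MelH in red and circles and squares for slides 1 and 2. The separation of red and blue is a description, since most of these genes were chosen for it, and *HSP42*, *SDH6* and *UTR2* have arrays that lie close together within each group, whereas single 5MelH arrays of *CIS1*, *DDR2* and *CLN3* lie far from each other.

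The general stress genes controlled by Msn2p and Msn4p lay on the same side. Of 34 listed and measured, 30 had a positive change, 11 were higher and 0 lower at an unadjusted p under 0.05, and the median was 0.16. The count of 14 whose groups did not overlap on the higher side compares with the 12.3% seen over all genes. *DDR2* (YOL052C-A), a stress gene first described after DNA damage, stood at −4.36, −4.59 and −4.44 in H and at −3.57, −3.54 and −4.08 in 5MelH, a difference of 0.74 (SE 0.162). The third 5MelH array was nearer to H than the other 2. *NCE103*, which encodes carbonic anhydrase, was higher by 0.36 (SE 0.074), and *CTT1*, the cytosolic catalase, stood at −3.51, −3.59 and −3.48 in H and at −3.30, −3.21 and −3.25 in 5MelH, a difference of 0.27 (SE 0.050), or of 0.17 with normexp. The list median was 0.20 within slide 1 and 0.062 within slide 2, 0.11 without 5MelH replicate 2 and 0.057 with normexp background correction. For H minus Control the list median was −0.44, so the list was lower under peroxide, against −0.089 for all genes. For 5Mel minus Control it was 0.37, against −0.012 for all genes. The list was drawn from general knowledge of the pathway and with earlier results of these arrays known.

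Not all stress programmes had such a count. The 22 genes of trehalose and glycogen metabolism, which many stresses induce, had a median of 0.011, with 1 gene higher and 1 lower at an unadjusted p under 0.05. The 20 transcription factors of heat shock and oxidant signalling had 1 higher, 1 lower and a median of −0.0069. Of these factors *CIN5*, a bZIP protein of the Yap family, stood at −4.77, −4.45 and −4.36 in H and at −3.81, −3.80 and −4.07 in 5MelH, so that the groups were apart by a mean of 0.64 (SE 0.134), with 0.97 within slide 1, 0.33 within slide 2 and 0.42 with normexp. The autophagy genes gave 5 higher and 2 lower among 35, against 7.15% and 5.22% of all genes. *ATG8*, the ubiquitin-like protein of the autophagosome, was higher by 0.35 (SE 0.103, but 0.15 within slide 2). *ATG12*, a second such protein, was higher by 0.24 (SE 0.065, but 0.14 within slide 2 and 0.11 with normexp).

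In the thioredoxin system, which passes electrons from NADPH to peroxiredoxins, both cytosolic thioredoxins were higher in 5MelH. *TRX2* (YGR209C) had levels of 3.85, 3.84 and 3.86 in H and of 4.22, 4.07 and 4.08 in 5MelH, a difference of 0.27 (SE 0.055) or 1.21-fold. *TRX1* (YLR043C) had levels of 2.02, 1.96 and 2.03 in H and of 2.20, 2.19 and 2.23 in 5MelH, a difference of 0.20 (SE 0.042). Neither gene overlapped between the groups. All 7 genes of thioredoxins, their reductases and methionine sulfoxide reductases had a positive change, 3 of them at an unadjusted p under 0.05, and the median was 0.13. Within slide 2 that median was 0.0095, and without 5MelH replicate 1 it was 0.047.

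*SRX1* (YKL086W), with the levels given above, differed by 0.62 (SE 0.113), which is 1.54-fold. Sulfiredoxin restores peroxiredoxins that have been inactivated by excess peroxide. Its difference was 0.80 within slide 1 and 0.36 within slide 2. The 6 genes of peroxiredoxins and sulfiredoxin all had a positive change, with a median of 0.12 (0.021 within slide 2 and 0.071 with normexp), and 2 of them reached an unadjusted p under 0.05. Among the 8 glutaredoxins, which use glutathione, 4 were positive and 4 negative. The 2 cytosolic dithiol forms stood out, *GRX1* higher by 0.22 (SE 0.060, but 0.11 within slide 2) and *GRX2* by 0.25 (SE 0.079). *GRX2* lay at 0.47, 0.60 and 0.54 in H and at 0.65, 0.82 and 0.90 in 5MelH. *HYR1*, the thiol peroxidase that senses H2O2 for Yap1p, was higher by 0.11 (SE 0.043), or by 0.18 with normexp. Of the 6 catalases, superoxide dismutases and cytochrome c peroxidase, *CTT1* alone reached an unadjusted p under 0.05.

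The pentose phosphate pathway, the main source of NADPH for these systems, contained genes on both sides. *ZWF1* (YNL241C), which encodes its first enzyme, glucose-6-phosphate dehydrogenase, stood at −0.24, −0.23 and −0.33 in H and at −0.51, −0.49 and −0.74 in 5MelH, lower by a log2 difference of −0.31 (SE 0.080). *NQM1*, a transaldolase, was higher by 0.34 (SE 0.068) with levels of −4.10, −4.10 and −3.95 in H and of −3.79, −3.70 and −3.62 in 5MelH. For both genes the groups did not overlap. The other 11 of 13 genes did not reach an unadjusted p under 0.05.

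In the respiratory chain, the lists differed. The 22 genes of cytochrome c, NADH dehydrogenases and quinone synthesis had 11 positive and 11 negative changes, a median of −0.0080, and 4 higher and 1 lower at an unadjusted p under 0.05. The 8 proteins encoded in the mitochondrial genome all had a positive change, with a median of 0.18, and 4 of them reached an unadjusted p under 0.05. *COX3* (Q0275), a core subunit of cytochrome c oxidase, stood at 0.23, 0.08 and 0.21 in H and at 0.39, 0.47 and 0.36 in 5MelH, without overlap and with a difference of 0.23 (SE 0.060). *ATP8* (Q0080), a subunit of the membrane part of ATP synthase, stood at −5.53, −5.43 and −5.26 in H and at −5.08, −5.10 and −5.07 in 5MelH, a difference of 0.32 (SE 0.076), or of 0.11 with normexp. *COX1*, the catalytic core subunit, was higher by 0.22 (SE 0.085) without overlap. *COX2* was higher by 0.28 (SE 0.109), and its groups touched, since the first 5MelH array (−3.03) lay below the third H array (−3.00). The list median was 0.20 within each slide. Under a block on the replicate number, 2 of the 8 reached an unadjusted p under 0.05.

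The 9 nuclear-encoded subunits of cytochrome c oxidase also all had a positive change, with a median of 0.18 and a range of 0.066 to 0.22. *COX5A* (YNL052W), the subunit used under aeration, stood at 1.90, 1.84 and 1.91 in H and at 2.15, 2.08 and 2.01 in 5MelH, a difference of 0.20 (SE 0.053). *COX6* (0.16, SE 0.044), *COX7* (0.19, SE 0.063) and *COX8* (0.22, SE 0.075) are the others at an unadjusted p under 0.05. For each of these 4 genes the groups did not overlap, and for *COX8* the difference was 0.29 within slide 1 and 0.073 within slide 2. The 32 measured assembly factors of the same complex were split, with 3 higher and 3 lower at an unadjusted p under 0.05 and a median of 0.025.

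Succinate dehydrogenase, complex II, had 9 of 10 positive changes and a median of 0.073 (0.045 without H replicate 3 and 0.12 without 5MelH replicate 3). *SDH6* (YDR379C-A), an assembly factor of this complex, was among the 12 higher genes with the smallest p, with levels of −4.15, −4.12 and −4.22 in H and of −3.80, −3.82 and −3.81 in 5MelH, a difference of 0.35 (SE 0.043) or 1.28-fold. Its values within the slides were 0.34 and 0.36, and with normexp background correction it was 0.15. *SDH8* and *SDH4* were both higher by 0.13 (SE of 0.037 and 0.044). Complex III, with 9 nuclear-encoded subunits, had a median of 0.094 (0.030 without 5MelH replicate 1, and 0.057 and 0.060 without replicates 2 and 3) and 1 gene at an unadjusted p under 0.05. Among 17 genes of ATP synthase and its inhibitors, 12 were positive and 6 reached an unadjusted p under 0.05 on the higher side. The list median was 0.12 (0.063 within slide 2). The 5 negative genes were *ATP1* (−0.066, SE 0.041, groups apart), *ATP2* (−0.12, SE 0.067), *ATP4*, *ATP5* and *ATP7*, so the enzyme did not move as a whole. *ATP19*, a small subunit of the membrane part, stood at 0.70, 0.57 and 0.64 in H and at 0.93, 0.92 and 0.86 in 5MelH, a difference of 0.27 (SE 0.052). *ATP20*, needed for dimers of the enzyme, was higher by 0.30 (SE 0.104), with 0.41 within slide 1 and 0.066 within slide 2. *STF2*, listed with the inhibitors of the enzyme, was higher by 0.46 (SE 0.125), with 0.59 within slide 1 and 0.23 within slide 2. The tricarboxylic acid and glyoxylate cycle, with 23 genes, had a median of −0.0023, and mitochondrial ribosomal proteins, with 66, had 0.0070.

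**Figure D3:**
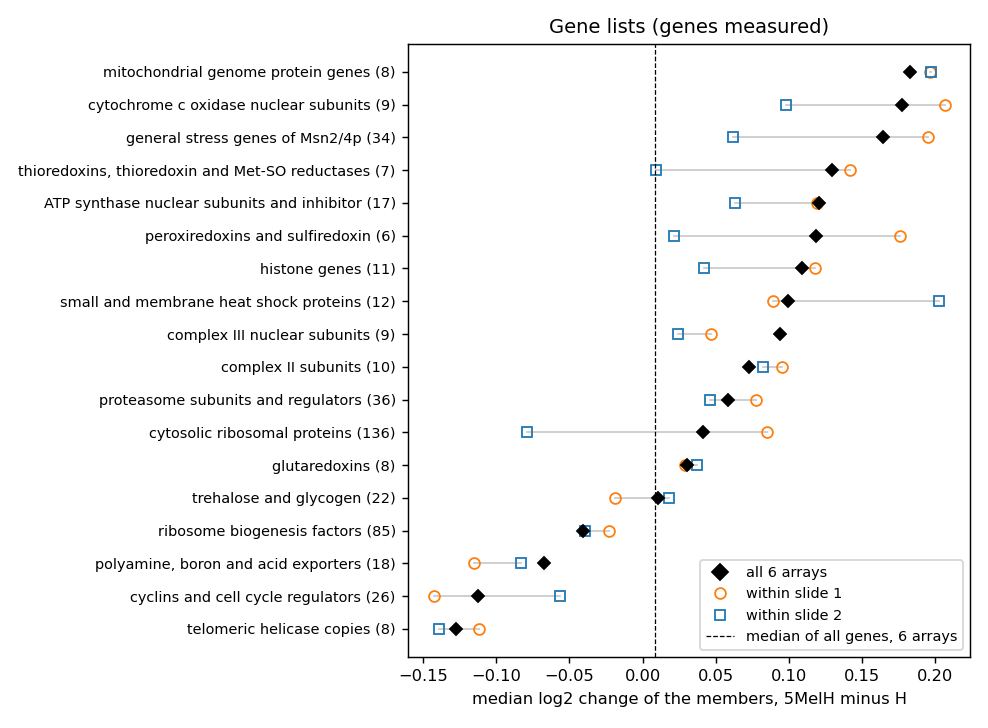
The median log2 change of the members, 5MelH minus H, is plotted for 18 gene lists over all 6 arrays (diamonds), within slide 1 (circles) and within slide 2 (squares), with the median of all genes as a dashed line. The mitochondrial genome genes have a median of 0.20 on both slides, while the cytosolic ribosomal proteins go from 0.085 on slide 1 to −0.079 on slide 2.

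*CIS1* (YLR346C), which acts at the mitochondrial surface when protein import is blocked, had the largest change of the bright genes. It stood at −4.34, −4.22 and −4.10 in H and at −3.21, −3.52 and −3.70 in 5MelH, a difference of 0.74 (SE 0.139) or 1.67-fold, with 0.98 within slide 1, 0.46 within slide 2 and 0.47 with normexp. The groups were apart, but the 3 arrays of 5MelH spread over more than those of H. *TIM8*, a chaperone of the intermembrane space, was higher by 0.33 (SE 0.096). Of 33 genes of mitochondrial protein import, 4 were higher and 0 lower at an unadjusted p under 0.05, and the groups did not overlap for 14 on the higher side and for 1 on the lower side, against 12.3% and 9.05% of all genes.

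Metal genes included the metallothioneins, small proteins that bind copper. *CUP1-1* (YHR053C) stood at 0.86, 0.86 and 0.95 in H and at 1.19, 1.38 and 1.21 in 5MelH, and *CUP1-2* (YHR055C) differed by 0.37 as well (SE of 0.068 and 0.056). The 2 are near-identical copies, so their probes cannot be taken as separate measurements. *CTR1* (YPR124W), the copper importer of the plasma membrane, stood at 1.72, 1.70 and 1.67 in H and at 1.53, 1.60 and 1.60 in 5MelH, a difference of −0.12 (SE 0.042). Among iron genes, *FET5*, an iron-handling oxidase of the vacuole, was lower by a log2 difference of −0.34 (SE 0.068), with 0.11, 0.17 and 0.05 in H and −0.31, −0.27 and −0.12 in 5MelH. *ISU2*, a scaffold for iron-sulfur clusters, was higher by 0.34 (SE 0.061), and *MMT1*, a metal transporter of mitochondria, was lower by a log2 difference of −0.17 (SE 0.048). In the iron regulon as a whole, 4 of 30 measured genes were higher and 3 were lower at an unadjusted p under 0.05. Over all genes these shares were 7.15% and 5.22%.

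Among the genes that were lower in 5MelH, *TPO1* (YLL028W), an exporter of polyamines, had the smallest p of those named here. Its levels were 0.18, 0.13 and 0.11 in H and −0.31, −0.20 and −0.17 in 5MelH, a difference of −0.37 (SE 0.053, adjusted p of 0.319 in limma), and it lay lower on both slides (−0.43 and −0.29). *HOL1*, a transporter of the same list, differed by −0.17 (SE 0.053), but by −0.073 within slide 2. *UTR2* (YEL040W), which links chitin to glucan in the cell wall, stood at 3.40, 3.36 and 3.34 in H and at 3.12, 3.13 and 3.10 in 5MelH, a difference of −0.25 (SE 0.040), and *PIR3*, a cell wall protein, differed by −0.24 (SE 0.044). Neither gene overlapped between H and 5MelH. Of 42 measured genes of the cell wall, 4 were higher and 5 lower at an unadjusted p under 0.05. Over all genes these shares were 7.15% and 5.22%.

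Further genes with a small p on the lower side belong to no common list. *MET4* (YNL103W), the activator of sulfur assimilation genes, stood at −2.58, −2.57 and −2.64 in H and at −2.91, −2.92 and −2.79 in 5MelH, a difference of −0.28 (SE 0.052). Of the 34 genes of sulfate assimilation and methionine synthesis, 3 were higher and 3 lower at an unadjusted p under 0.05. Over all genes these shares were 7.15% and 5.22%. *ALD5*, a mitochondrial aldehyde dehydrogenase, differed by −0.32 (SE 0.051), *BDF1*, a bromodomain protein of the transcription machinery, by −0.30 (SE 0.054), *CWC2*, a splicing factor, by −0.32 (SE 0.055), and *INA1* by −0.24 (SE 0.038). For each of these the groups did not overlap, which was a condition for naming genes by a small p.

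Cyclins and cell cycle regulators lay on the lower side, with 23 of 26 negative, 0 higher and 5 lower at an unadjusted p under 0.05, and a median of −0.11 (0.081 with spike-in scaling, where that of all genes was 0.20). *CLN3* (YAL040C), the cyclin that starts the G1 to S transition, stood at −2.46, −2.52 and −2.58 in H and at −3.17, −2.66 and −3.28 in 5MelH. The difference of −0.51 (SE 0.169) came mostly from replicates 1 and 3, as replicate 2 lay just under H. *FKH1*, a forkhead factor of G2 and M phase genes, stood at −1.48, −1.51 and −1.60 in H and at −1.70, −1.78 and −1.78 in 5MelH, a difference of −0.22 (SE 0.052), *HCM1*, a forkhead factor of S phase, differed by −0.22 (SE 0.075), and *CDC20*, an activator of the anaphase-promoting complex, by −0.16 (SE 0.041). *CMR1*, a DNA-binding protein of genome maintenance, had the lowest change of the bright genes (−0.54, SE 0.180). The median was −0.066 without 5MelH replicate 1. Without the 2 arrays whose negative controls varied most, 22 of the 26 cell cycle genes were negative and the median was −0.11. Histone genes went the other way, with 10 of 11 positive and a median of 0.11 (0.023 without 5MelH replicate 1 and 0.065 without H replicate 3), of which 2 reached an unadjusted p under 0.05.

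Ribosome biogenesis factors were slightly lower, with 63 of 85 negative, 10 lower and 1 higher at an unadjusted p under 0.05 and a median of −0.041 (0.15 with spike-in scaling, −0.024 without H replicate 2 and −0.062 without H replicate 1). *NOG2*, a GTPase of the large subunit precursor, stood at 1.34, 1.41 and 1.30 in H and at 0.98, 0.89 and 1.17 in 5MelH, a difference of −0.33 (SE 0.082), with −0.18 within slide 2. *RRP14* (−0.19, SE 0.060) and *NOP14* (−0.15, SE 0.046), both needed for the small subunit, were also lower on all 3 arrays. The 136 cytosolic ribosomal protein genes gave 104 positive changes with a median of 0.041, and this median was −0.079 within slide 2, between −0.056 (without 5MelH replicate 1) and 0.12 (without 5MelH replicate 3) with any 1 array left out, and 0.15 without the 2 arrays with the most variable negative controls. The 8 copies of the telomeric helicase YRF1 were all negative, with a median of −0.13 (0.066 with spike-in scaling), such as *YRF1-8* (−0.14, SE 0.039), and the related *YEL077C* differed by −0.26 (SE 0.050). These copies are near-identical and count as about 1 measurement. With the replicate number as a block, 5 of the ribosome biogenesis factors and 1 YRF1 copy were lower at an unadjusted p under 0.05.

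Several genes with the smallest p have no or little described function. *YMR090W* stood at −2.75, −2.70 and −2.61 in H and at −2.10, −2.25 and −2.21 in 5MelH, a difference of 0.50 (SE 0.063) with 0.58 and 0.45 within the slides. *RGI1* (YER067W), known for its induction under respiratory growth, stood at −3.21, −3.22 and −3.17 in H and at −2.83, −2.82 and −2.91 in 5MelH, a difference of 0.35 (SE 0.045). Both were apart on every array. *GPM2*, a relative of phosphoglycerate mutase, was higher by 0.35 (SE 0.053, but 0.19 with normexp), *ZEO1*, a protein at the plasma membrane, by 0.31 (SE 0.047), and *YPD1*, the phosphorelay protein of the osmosensing pathway, by 0.29 (SE 0.045). *RTC3* (0.52, SE 0.099) and *CPP3* (0.60, SE 0.172) were higher as well, but both by 0.25 with normexp, and *EGO4* (0.50, SE 0.088) was higher by 0.60 within slide 1 and 0.31 within slide 2.

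The study had taken 9 genes from these arrays to qPCR, so their array values are a description. Of these, 7 were well above background on all 6 arrays. *SDH6*, *COX2*, *ATP20*, *SRX1*, *CIS1* and *MMT1* are described above. *GDH3*, a glutamate dehydrogenase, was higher by 0.35 (SE 0.124), but by 0.051 with normexp, 0.18 within slide 2 and 0.22 without 5MelH replicate 1. *MGA1*, a factor of filamentous growth, was not well above background on 1 of the 3 5MelH arrays, and stood at −5.08, −6.14 and −5.81 in H and at −6.94, −6.38 and −6.19 in 5MelH. *ADY2*, an acetate transporter, was not well above background on any of the 6 arrays, so no change is given. The 3 reference genes of that qPCR had changes between −0.055 and 0.073.

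Against unstressed cells, the levels place these differences on a larger scale. *HSP26* averaged −4.07 in Control, −4.03 in 5Mel, −2.32 in H, −1.84 in 5MelH and −1.57 in 25MelH, so the difference between 5MelH and H was small beside that between H and Control. *BTN2* averaged −2.82, −2.49, −0.56, −0.067 and −0.034 in the same order, and *TPO1* −0.74, −0.95, 0.14, −0.23 and −0.12. *CUP1-1* went the opposite way under stress, with 4.21 in Control, 5.45 in 5Mel, 0.89 in H, 1.26 in 5MelH and 1.23 in 25MelH. *COX3* averaged 1.13, 1.22, 0.18, 0.41 and 0.38. For *TPO1* and *FET5*, the level in 5MelH lay between H and Control, and for *HSP26*, *BTN2* and *SRX1* it lay beyond H.

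The higher dose shares the H arrays with the comparison above, so its values are given beside it without a test. The log2 difference to H in 5MelH and in 25MelH was 0.62 and 0.94 for *SRX1*, 0.47 and 0.75 for *HSP26*, 0.74 and 1.04 for *DDR2* and 0.74 and 0.80 for *CIS1*. It was 0.27 and 0.25 for *TRX2*, 0.37 and 0.33 for *CUP1-1*, −0.37 and −0.26 for *TPO1* and −0.34 and −0.28 for *FET5*. *PIR3* differed in sign, with −0.24 and 0.18. The medians over all genes were 0.0086 and 0.018.

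**Figure D4:**
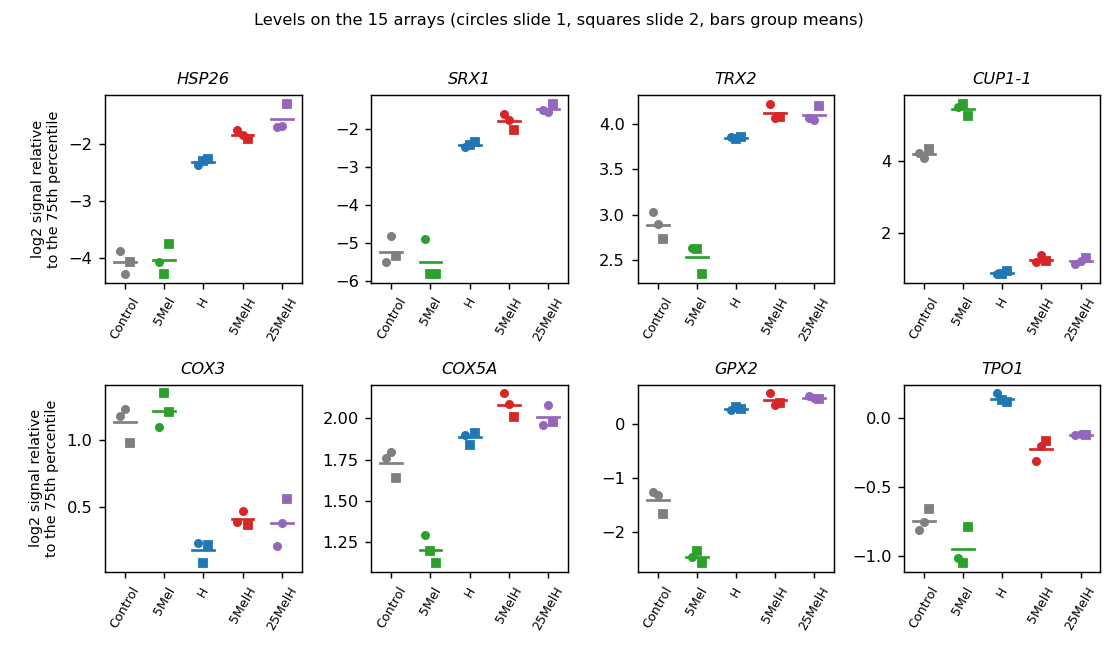
The log2 signal relative to the array's 75th percentile is plotted for 8 genes on all 15 arrays, with each point 1 array (circles slide 1, squares slide 2), bars for group means, and a scale of its own for each gene. The step from H to 5MelH in *HSP26*, *SRX1* and *TPO1* exceeds the spread of both groups and is smaller than the step from Control to H. *HSP26* and *TPO1* were named for a small p with groups that do not overlap, so the first trait is a description and no support.

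Whether melatonin had another effect with stress than without was tested by the contrast (5MelH − H) − (5Mel − Control) over 12 arrays, in which the 2 effects have no array in common. It called 21 of 6224 genes (0.337%), 9 with a positive and 12 with a negative contrast, and the smallest adjusted p was 0.00912. *GPX2* (YBR244W), a glutathione peroxidase, had levels of −1.26, −1.32 and −1.66 in Control, −2.45, −2.35 and −2.57 in 5Mel, 0.25, 0.32 and 0.28 in H and 0.57, 0.35 and 0.39 in 5MelH. It was thus lower with melatonin in unstressed cells (−1.04) and not lower in stressed ones (0.16), a contrast of 1.20 (SE 0.152, adjusted p of 0.016 in limma). *COX5A* (−0.53 without and 0.20 with stress) and *CTR1* (−1.07 and −0.12) had contrasts of 0.72 and 0.94. *PET18* (−0.51 and 0.23) and *YOR338W* (−1.05 and −0.14) had 0.74 and 0.90.

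The negative contrasts named here belonged to genes that were higher with melatonin in unstressed cells and less so, or lower, in stressed ones. *DIP5*, a permease of acidic amino acids, gave 0.94 without and −0.065 with stress, a contrast of −1.01 (SE 0.103, adjusted p of 0.0091 in limma). *ANB1*, the hypoxic form of the translation factor eIF5A, gave 1.17 and 0.13, *ATF1*, an alcohol acetyltransferase, 0.73 and 0.064, *TIR1*, a cell wall mannoprotein of anaerobic cells, 0.82 and −0.13, and *UPC2*, the regulator of sterol uptake, 0.52 and −0.21. *CUP1-1* gave 1.24 and 0.37, while its near-identical copy *CUP1-2* was not called. The effect without stress was the larger one in each of the called genes named here. The 5Mel arrays had the most variable negative controls of the series (SD of 63.6, 44.0 and 26.1), whose part in the result was not tested.

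The number called depended on single arrays. Blocking on the replicate number within each stress level gave 1, and blocking on the slide gave 6. It was 0 without H replicate 1, H replicate 3 or 5MelH replicate 1, and 1 without Control replicate 1 or 5MelH replicate 3. Leaving out Control replicate 2 gave 2, H replicate 2 gave 3 and 5Mel replicate 2 gave 126. The other omissions stayed nearer to 21, with 18 without Control replicate 3 or 5MelH replicate 2, 23 without 5Mel replicate 1 and 28 without 5Mel replicate 3.

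**Figure D5:**
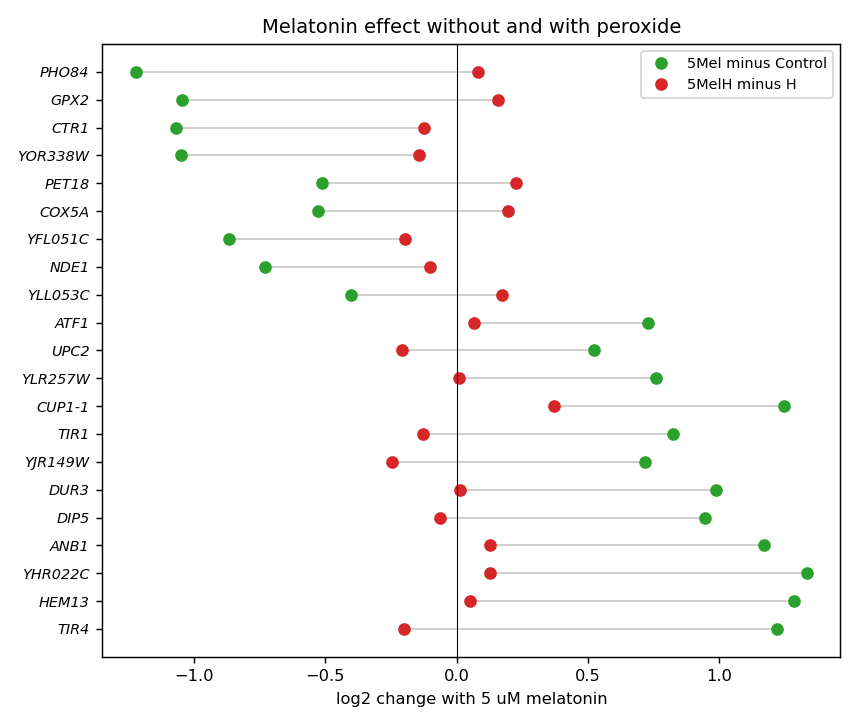
For the 21 genes called in the contrast, the log2 change with 5 μM melatonin is plotted without peroxide (5Mel minus Control, green) and with it (5MelH minus H, red). Red points lie between −0.25 and 0.37 in all 21 genes, and green points reach from −1.22 to 1.33.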

How the data were processed

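RNA of 15 cultures was hybridised to one-colour yeast arrays. The authors extracted the scanner tables with Feature Extraction 12.0.1.1, and the deposited processed signal is a background-subtracted intensity on a linear scale. The deposited matrix holds log2 values, and 9 of its 15 columns (those named 5Mel, H and 5MelH) equal another sample's scanner table (r of at least 0.9997 over 6249 probes). The scanner labels were used. The matrix names would place the high *SRX1* levels on the peroxide-free 5Mel arrays. Which of the stressed sets had melatonin rests on the scanner labels. The directions that the paper reports from the same arrays match these labels for the 6 genes compared above, and no separate measurement was used.

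The log2 intensity of non-control spots minus the array's 75th percentile was averaged per probe, without spots marked as outliers. The probe with the highest mean was kept per gene, leaving 6224 genes, of which 5750 have a name in the gene table. R 4.3.3 with limma 3.58.1 (lmFit, eBayes, two-sided) was fitted on the arrays compared, with p-values adjusted by Benjamini-Hochberg over the whole table (threshold 0.05). Scripts were tested on simulated data. The number of arrays limits the precision, and p-values measure only the spread between these arrays, labelled as replicates.

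Members and gene lists were chosen with earlier results of these data known. Lists are described by counts and medians, without a test. Named genes are those well above background whose groups do not overlap, the 12 with the smallest p and the 8 with the largest change in each direction, up to 4 members of each list with the smallest p, the study's qPCR genes, the 4 of each sign in the second contrast, and genes called under an alternative. The text names part of them.

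Same-numbered arrays of 5MelH and H deviated together (r of 0.14, 0.31 and 0.26) and were treated as pairs in the fit with a replicate block. This rests on the data, not on a stated design, and numbers 1 and 3 also share a slide. Alternatives covered scaling, background (normexp on the median signal, offset 50), dim probes, outlier spots, probes per gene, the spread, slide, replicate block, the matrix and single arrays. No genome sequence was used here.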

Additional observations from a re-analysis of the deposited data

Results flagged for a closer look

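The effect of melatonin differed between stressed and unstressed cells for 21 genes by the test of the contrast itself. Their contrasts, as far as these genes are named, were 1.20 for *GPX2*, 0.94 for *CTR1*, 0.90 for *YOR338W*, 0.74 for *PET18* and 0.72 for *COX5A* on the positive side. On the negative side they were −1.04 for *ANB1*, −1.01 for *DIP5*, −0.95 for *TIR1*, −0.88 for *CUP1-1*, −0.73 for *UPC2* and −0.66 for *ATF1*. *CUP1-2*, the near-identical copy of *CUP1-1*, was not among the 21. With the replicate number as a block 1 gene passed.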

How the results depend on the processing

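The number of genes called between 5MelH and H was 0 in all settings except an intensity trend with robust spread in limma, which called 9, and the omission of H replicate 1 with 5MelH replicate 3, chosen after seeing the data, which called 1. It was 0 to 0 when single arrays were left out. At an unadjusted p under 0.05, higher genes numbered 900 with spike-in scaling, 246 with normexp, 190 in a fit over 15 arrays, 165 within slide 1, 208 within slide 2 and 210 to 573 without single arrays, against 445. Lower genes numbered 9 with spike-in scaling, 207 in the fit over 15 arrays, 123 within slide 1, 152 without both arrays and 150 to 461 without single arrays, against 325. Higher genes were 57.8% of these, 99.0% with spike-in scaling, 39.3% with normexp and 33.8% within slide 2. Spike-in scaling moved the median of all genes to 0.20, and gave a positive change for *CTR1* (0.070), *MMT1* (0.025), *HOL1* (0.023), *CDC20* (0.031), *NOP14* (0.048) and *YRF1-8* (0.053). With the replicate number as a block 0 genes were called between 5MelH and H, 293 were higher, and the second contrast called 1. The block changed no other call between 5MelH and H.

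The second contrast called 32 genes with quantile scaling, 5 with spike-in scaling, 32 without dim probes, 38 with the trend and robust spread, 6 with the slide as a block and 0 to 126 without single arrays, against 21. At an unadjusted p under 0.05 its positive genes numbered 2388 with spike-in scaling, 157 with normexp and 251 to 599 without single arrays, against 362, and its negative genes 9 with spike-in scaling and 185 to 463 without single arrays, against 251. The cause of these shifts was not tested. For dim genes the signal over background limits what can be measured.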

Other observations

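Counts for other gene groups are at an unadjusted p under 0.05, where 7.15% of all genes were higher and 5.22% lower. Proteasome subunits and their regulators, which degrade damaged proteins, had 28 of 36 positive changes, 5 higher and 0 lower, and a median of 0.059 (0.031 with normexp), and with the replicate number as a block 1 was higher. Amino acid and peptide permeases had 20 of 28 negative changes, and 1 higher and 4 lower, and the median ran from −0.075 without 5MelH replicate 2 to −0.0069 without 5MelH replicate 1. Genes of thiamine and vitamin B6 synthesis had 16 of 24 positive changes, and 3 higher and 0 lower, with a median of 0.071 that was 0.029 without 5MelH replicate 1 and −0.013 with normexp. Folding and disulfide formation in the endoplasmic reticulum gave 4 higher and 1 lower among 22 genes, and aminoacyl tRNA synthetases gave 0 higher and 1 lower among 21.

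Glycolysis and fermentation had 14 of 32 positive changes and a median of −0.0079, with 0.050 within slide 1 and −0.092 within slide 2. Without H replicate 1 and 5MelH replicate 3, 24 of the 32 were positive and the median was 0.064. Markers of other cell states were mostly dim. Of 25 genes specific to haploid cells 10 were well above background on all 6 arrays, and of 32 sporulation and meiosis genes also 10. The haploid median was 0.056, but −0.017 without H replicate 1, −0.061 within slide 2 and −0.067 with normexp, and the sporulation median ran from −0.043 to 0.057 without single arrays, so neither has a settled sign.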
